A study of Mus musculus with 12 samples.

Results

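The offspring of mothers on WD (Western diet) were compared by their own diet: aortic endothelial cells of offspring on WD, the group WD_WD, were set against those of offspring on CD, the group WD_CD. The comparison takes 6 of the 12 libraries of the study, WD_CD_1 to WD_CD_3 and WD_WD_1 to WD_WD_3, chosen by their titles, and all 10655 genes of the processed table were tested. Each title joins 2 diets, read here as maternal diet then offspring diet because the series text names its groups in that order. All 6 libraries thus share the maternal WD and differ in the offspring's diet. By the series text, animals in the groups with WD offspring received that diet again for 4 weeks before cells were isolated. The other 6 libraries, 3 of CD_CD and 3 of CD_WD, repeat the contrast with mothers on CD. CD is left as the labels give it.

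RNA was measured by SMART-seq, which reads transcripts over their full length from little material. The labels name mouse aortic endothelial cells and give no strain, genotype, sex, age, sorting step or batch, and do not say whether a library is 1 animal, a pool or a repeat preparation. The p-values therefore rest only on how far the samples of all 4 groups scatter, which may be technical. Any difference in preparation between the groups and the offspring's diet cannot be told apart.

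Endothelial cells line the aorta, sense the shear stress of the blood, keep the vessel surface free of clots and decide which blood cells may enter the wall. In atherosclerosis, which high-fat diets promote in mice, lipoproteins collect beneath this lining, and chemokines and adhesion molecules draw in monocytes. These become macrophages that take up lipid and remain directly under the endothelium, together with other leukocytes that present antigen.

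The WD_CD libraries held 10667657 to 17222566 reads in the tabulated genes and the WD_WD libraries 4074413 to 12487609. The deposited values are read counts divided by a factor per library, called normalised values here, and 1 read was worth 0.398 to 0.669 in WD_CD and 1.52 to 3.96 in WD_WD. The top 20 genes by reads held 39.0% to 44.5% of a WD_WD library, against 13.6% to 14.4% of a WD_CD library. The defining endothelial genes Pecam1 and Cdh5 had reads in every library, while transcripts of macrophages, such as Lyz2 and Cd68, had reads in every library too. WD_CD_1 had the highest levels of leukocyte lists in its group and WD_CD_2 the lowest for most of them. In a principal component analysis of the 6 libraries WD_CD_3 lay at one end of component 2 (16.6% of variance), at -100.0, with the others between -59.7 and 71.5.

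On log2(normalised value + 1), limma called 1516 genes higher (14.2% of the 10655 tested) and 1088 lower (10.2%) in WD_WD than in WD_CD, at a Benjamini-Hochberg adjusted p under 0.05. Genes of leukocytes, antigen presentation, chemokines, ribosomes and the respiratory chain were called higher more often than all genes were, and genes of endothelium, vascular matrix and fibroblasts were called lower more often, as the lists below count. The median size was 2.34 log2 units among the genes called higher and 2.57 among those called lower, and the smallest 0.80 and 0.77. For 1483 of the genes called higher and 1062 of those called lower the 3 libraries of each group did not overlap. In the same directions 21.9% and 19.4% of all genes had that property. The test selects large and separated differences, so these sizes and overlaps describe the genes called and not all genes. On the reads recovered from the values, edgeR called 1103 higher and 1012 lower, of which 1099 and 933 were also called by limma. A limma fit on the 6 libraries alone called 1396 higher and 872 lower. Without WD_CD_2 the count of genes called lower was 528, and without WD_CD_3 it was 582.

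Library total and transcript length moved with the groups and touch every count that follows. The deposited factors set the typical gene to the same level everywhere. Scaling all libraries to the same total instead moved the median of all genes by -1.36 and gave 440 genes higher and 4271 lower, so that 9.34% of the calls were upward in place of 58.2%. List counts after this scaling are to be set beside these 440 and 4271 of 10655 genes, not beside the shares of the main fit. A list's distance from the median of all genes is nearly free of the choice of scaling. The difference also followed transcript length, taken from GENCODE for 10602 genes (Spearman's rho -0.375 across genes, which are not independent). When genes were divided into 5 equal classes of length, in the shortest class, of 70 to 1462 bases, 792 were called higher and 35 lower. In the longest class, from 4316 bases, 79 were called higher and 471 lower. Between libraries of the same group rho lay between -0.04 and 0.12, and with CD mothers it was -0.405. Centring each library within 20 bins of transcript length left 895 genes higher and 747 lower, of which 757 and 606 were also called without it. The part of transcript length in the results below was not tested. List counts after this centring are given where a count over 3 moved by more than 1.5 times. They are to be set beside these 895 and 747 of 10655 genes.

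**Figure D1:**
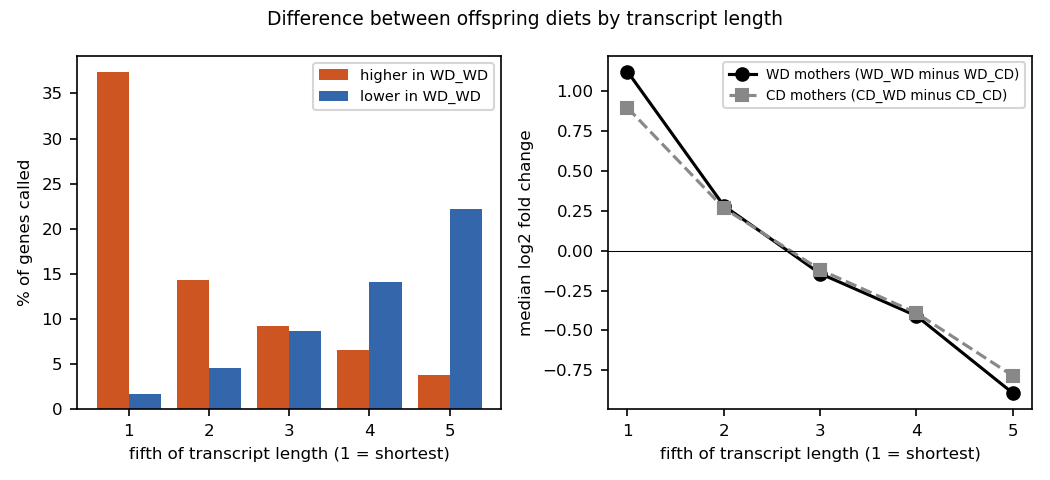
Share of genes called higher (orange) or lower (blue) in WD_WD in 5 classes of transcript length (left, %), and the median log2 fold change of each class under both maternal diets (right). The share called higher was 37.3% in the shortest and 3.73% in the longest class, and the medians ran from 1.12 to -0.89 with WD mothers.

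Gene lists were written for pathways and cell types of the aorta, 51 in all, with older gene symbols matched. Of the genes named below as called, each kept its call in all 25 other fits (other scalings, filters, tests, and each library left out) unless an exception is given beside it, except that DESeq2 gave no adjusted p for H2-Aa. Counts of 3 or fewer called members often moved by more than 1.5 times when 1 library was left out, and only larger counts are followed through those fits below. Fold changes are WD_WD minus WD_CD in log2 units with the standard error of the fit, at 3 libraries per group.

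**Figure D2:**
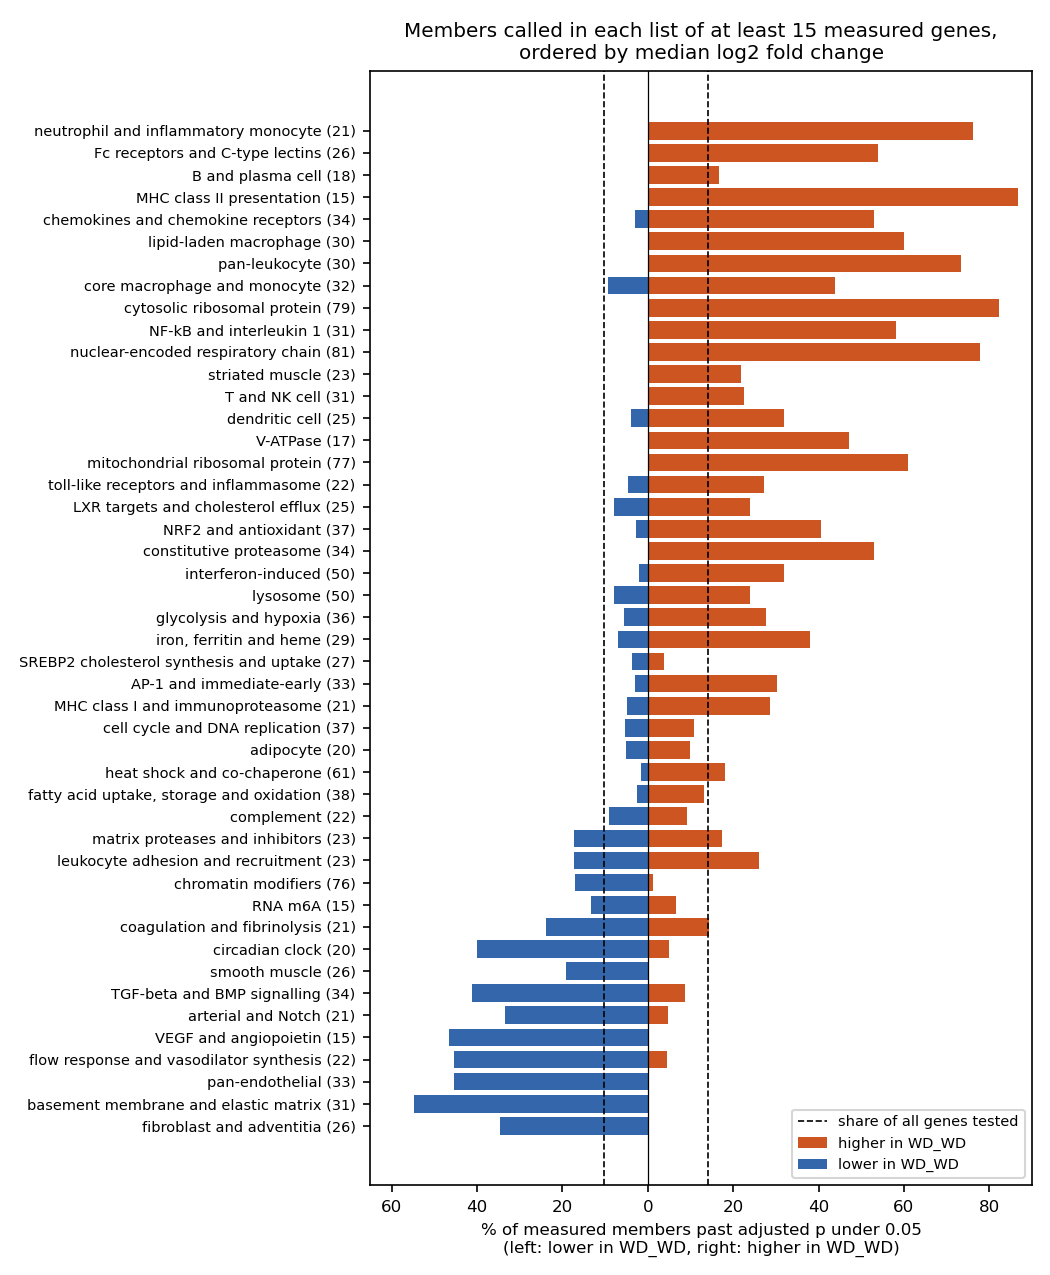
Share of measured members (%) called higher (right, orange) and lower (left, blue) in WD_WD, for the lists with at least 15 measured genes, ordered by median log2 fold change. Dashed lines mark the share of all genes, 14.2% and 10.2%. After scaling to equal totals the lists with medians from 1.35 (LXR targets) down to 0.15 (fatty acid genes) had medians below 0.

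Endothelial identity genes were lower in WD_WD. Of 33 measured pan-endothelial genes, 15 fell and 0 rose, with a median of -2.29 against 0.01 over all genes. The junction genes Pecam1 and Cdh5, the receptor phosphatase Ptprb and the secreted platelet-adhesion protein Vwf were among them. In bulk RNA, fewer cells of a type and less RNA per cell cannot be told apart. Pecam1, an adhesion molecule of endothelial junctions, had normalised values of 18154, 26277 and 24698 in WD_CD and 4277, 2537 and 3172 in WD_WD (-2.81 ± 0.66, limma adjusted p = 0.0101). Cdh5, VE-cadherin of the adherens junction, had 1730, 1681 and 3241 in WD_CD and 303, 53.1 and 111 in WD_WD (-4.11 ± 0.78, limma adjusted p = 0.00342). Ptprb, the phosphatase that acts on VE-cadherin and the Tie2 receptor, had 7678, 13768 and 11923 in WD_CD and 645, 350.3 and 325 in WD_WD (-4.69 ± 0.75, limma adjusted p = 0.00148). All 3 were low in each WD_WD library, WD_WD_1 being the highest of them, and the groups did not overlap. Mmrn1, multimerin of endothelial storage granules, fell furthest in the list, from 1667, 2107 and 695 in WD_CD to 2.57, 4.55 and 107 in WD_WD (-6.71 ± 1.16, limma adjusted p = 0.00199). Vwf, which shares those granules, had 13492, 16245 and 18715 in WD_CD and 2222, 1108 and 946 in WD_WD (-3.59 ± 1.02, limma adjusted p = 0.0235). Its call was lost without WD_CD_2, WD_CD_3, WD_WD_2 or WD_WD_3 (limma adjusted p 0.0616 to 0.0714). Kdr, the main VEGF receptor, did not pass, with 179, 428 and 418 in WD_CD and 126, 65.2 and 317 in WD_WD (-1.20 ± 0.73, limma adjusted p = 0.244), and its groups overlapped.

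The count of pan-endothelial genes called lower was 5 without WD_CD_2, WD_CD_3 or WD_WD_3, 6 without WD_WD_2 and 25 without CD_WD_1. After centring on transcript length 10 were lower, and after scaling to equal totals 27. Over the same libraries the summed value of the 30 pan-leukocyte genes was 13202 to 41161 in WD_CD and 190700 to 256530 in WD_WD, with 22 higher and 0 lower. Its part in the endothelial result was not tested.

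**Figure D3:**
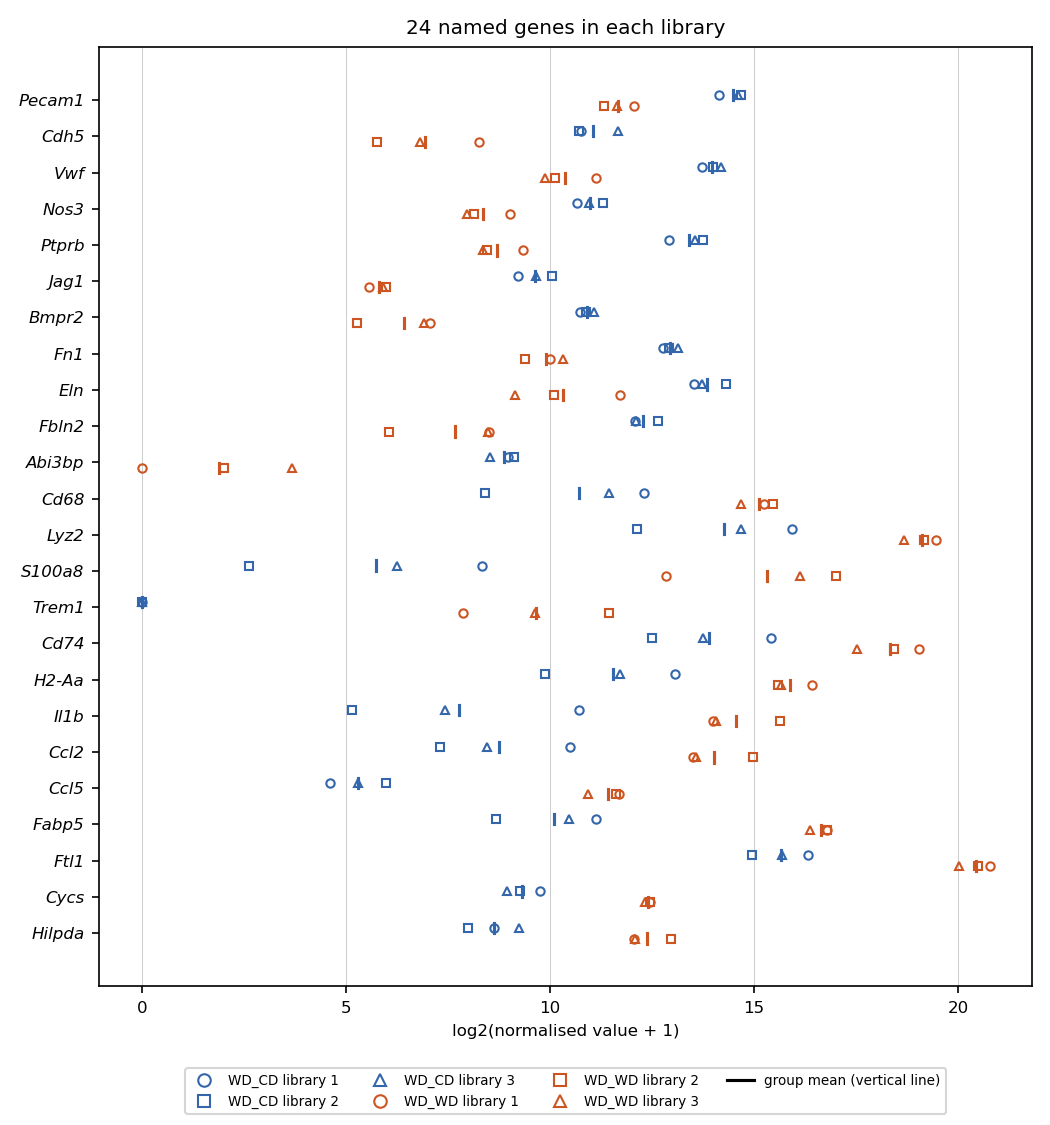
Level of 24 named genes, log2(normalised value + 1), in each WD_CD (blue) and WD_WD (orange) library, with vertical lines at the group means. The endothelial and matrix genes at the top lie lower in WD_WD and the leukocyte, chemokine, ferritin, respiratory chain and lipid droplet genes below lie higher, with no overlap in any of the 24. Trem1 had no read in WD_CD.

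Genes of the response to laminar flow and of vasodilator synthesis were also lower: 10 of 22 fell and 1 rose (median -2.17). The cavins Sdpr and Ptrf, which coat the caveolae of endothelial membranes, fell together. Sdpr had 6459, 9108 and 7772 in WD_CD and 545, 370.02 and 768 in WD_WD (-3.84 ± 0.64, limma adjusted p = 0.00178), and Ptrf had 4620, 6005 and 6111 in WD_CD and 627, 441 and 535 in WD_WD (-3.39 ± 0.62, limma adjusted p = 0.00264). Thbd, thrombomodulin, which turns thrombin toward the activation of anticoagulant protein C, had 2055, 2096 and 2272 in WD_CD and 344, 241 and 364 in WD_WD (-2.78 ± 0.59, limma adjusted p = 0.00637). For each of these 3 the highest WD_WD library lay well under the lowest WD_CD library. Nos3, which makes the vasodilator nitric oxide, had 1617, 2514 and 2000 in WD_CD and 514, 279 and 249 in WD_WD (-2.61 ± 0.75, limma adjusted p = 0.0254), with the call lost without WD_CD_2, WD_CD_3, WD_WD_2 or WD_WD_3 (limma adjusted p 0.0653 to 0.0773). Klf4, a flow-induced transcription factor, had 1746, 1855 and 1410 in WD_CD and 357, 604 and 162 in WD_WD (-2.34 ± 0.60, limma adjusted p = 0.0152), lost without WD_CD_2 or WD_WD_3 (limma adjusted p 0.0506 to 0.0578). Klf2, the other flow-induced factor of this family, did not pass: its values were 3049, 4453 and 3675 in WD_CD and 6858, 5902 and 8648 in WD_WD (0.94 ± 0.38, limma adjusted p = 0.0862), and the sign turned to -0.45 under scaling to equal totals. The list's count of falls was 4 without WD_CD_2 or WD_WD_3, 5 without WD_CD_3 or WD_WD_2 and 16 without CD_WD_1.

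Notch, VEGF and BMP signalling genes of the arterial endothelium were lower, receptors and ligands alike. In the arterial and Notch list 7 of 21 fell and 1 rose (median -2.09). Jag1, a Notch ligand, had 589.7, 1058 and 804 in WD_CD and 46.2, 62.2 and 59.4 in WD_WD (-3.82 ± 0.55, limma adjusted p = 0.000823). The receptor Notch4 had 775, 881 and 758 in WD_CD and 136, 86.4 and 162 in WD_WD (-2.68 ± 0.56, limma adjusted p = 0.00577), and Efnb2, the ephrin that marks arterial endothelium, had 459, 1183 and 668 in WD_CD and 128, 65.2 and 15.8 in WD_WD (-3.77 ± 0.82, limma adjusted p = 0.00689). These 3 were low in every WD_WD library without overlap. The member that rose was Cxcr4, the receptor of the chemokine CXCL12, which leukocytes carry as well, with 34.4, 38.3 and 12.7 in WD_CD and 375, 648 and 657 in WD_WD (4.35 ± 0.81, limma adjusted p = 0.00310).

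Of 15 VEGF and angiopoietin genes 7 fell and 0 rose (median -2.09). Nrp1, a co-receptor of VEGF and semaphorins, had 3027, 3270 and 4163 in WD_CD and 742, 875 and 819.6 in WD_WD (-2.09 ± 0.41, limma adjusted p = 0.00420), and the ligand Sema3f had 798, 1181 and 1369 in WD_CD and 152, 59.1 and 43.6 in WD_WD (-3.88 ± 0.97, limma adjusted p = 0.0138). Figf, VEGF-D, a growth factor of lymphatic vessels, had only 3 reads in WD_WD: its values were 222, 64.2 and 84.3 in WD_CD and 0, 4.55 and 0 in WD_WD (-5.92 ± 1.07, limma adjusted p = 0.00255), and the ratio of pooled levels was 55.2, with a 95% exact counting interval of 18.8 to 268. All 3 genes were without overlap between groups. In the TGF-beta and BMP list 14 of 34 fell and 3 rose (median -2.04). The ligand Bmp6 had 1794, 3470 and 2915 in WD_CD and 223, 100.1 and 83.1 in WD_WD (-4.41 ± 0.78, limma adjusted p = 0.00226). The type II receptor Bmpr2 had 1709, 1885 and 2157 in WD_CD and 134, 37.9 and 119 in WD_WD (-4.48 ± 0.77, limma adjusted p = 0.00200), and the transducer Smad1 had 575, 616 and 569 in WD_CD and 108, 74.3 and 119 in WD_WD (-2.56 ± 0.48, limma adjusted p = 0.00318). Ligand, receptor and transducer were thus lower in every WD_WD library than in any WD_CD library. Id2, a target of this pathway that is also expressed in leukocytes, rose, from 2638, 3417 and 2546 in WD_CD to 13308, 14511 and 11411 in WD_WD (2.19 ± 0.29, limma adjusted p = 0.000568), with its call lost after scaling to equal totals (limma adjusted p = 0.0791).

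The falls counted in these 3 lists varied with the libraries. The arterial and Notch count was 13 without CD_WD_1, the VEGF count was 3 without WD_CD_2, WD_CD_3, WD_WD_2 or WD_WD_3 and 4 without WD_CD_1, and the TGF-beta and BMP count was 8 without WD_CD_2 and 9 without WD_CD_3 or WD_WD_2. Scaling to equal totals gave 16, 11 and 25 falls. After centring on transcript length, 5, 3 and 9 members were lower.

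Coagulation genes moved in both directions. Plaur, the urokinase receptor, rose from 1063, 875 and 984 in WD_CD to 3799, 12376 and 5638 in WD_WD (2.72 ± 0.42, limma adjusted p = 0.00126). F2r, the thrombin receptor PAR1, fell from 821, 1182 and 1127 in WD_CD to 179.8, 158 and 158 in WD_WD (-2.64 ± 0.55, limma adjusted p = 0.00544), as did Pros1, the anticoagulant protein S, from 2292, 1994 and 1433 in WD_CD to 306, 77.3 and 234 in WD_WD (-3.40 ± 0.76, limma adjusted p = 0.00834). In all, 3 of 21 members rose and 5 fell, and the count of falls was 3 without WD_CD_2 and 8 without CD_WD_1. The share that rose was near the 14.2% of all genes, and the share that fell was above their 10.2%.

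Leukocyte adhesion and recruitment genes moved both ways: 6 of 23 members rose and 4 fell. Those that rose included the chemokines Cxcl2, Cxcl10, Ccl2 and Ccl7 and the leukocyte integrin chain Itgb2, which had 1056, 349 and 929.5 in WD_CD and 4380, 6785 and 4130 in WD_WD (2.83 ± 0.40, limma adjusted p = 0.000787), without overlap. Itgb1, the beta chain of the matrix-binding integrins, fell from 4837, 7044 and 6275 in WD_CD to 1320, 1189 and 1235 in WD_WD (-2.26 ± 0.44, limma adjusted p = 0.00367). The adhesion molecules of activated endothelium did not pass. Vcam1, which binds monocyte integrins, had 5434, 11139 and 9260 in WD_CD and 3964, 6126 and 5927 in WD_WD (-0.65 ± 0.95, limma adjusted p = 0.638). Icam1, the ligand of Itgb2, had 3107, 8702 and 4067 in WD_CD and 3111, 6460 and 2126 in WD_WD (-0.45 ± 0.71, limma adjusted p = 0.663). The groups overlapped for both. P-selectin, Selp, had 1695, 2616 and 2145 in WD_CD and 658, 1369 and 1192 in WD_WD (-1.05 ± 0.94, limma adjusted p = 0.431), lower in each WD_WD library but not called. The count of rises was 5 to 6 with 1 library left out, and that of falls 2 without WD_CD_2, WD_CD_3 or WD_WD_3 and 7 without CD_WD_1. Falls numbered 8 after scaling to equal totals, a share below that of all genes then (4271 of 10655).

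Matrix genes of the vessel wall were lower. Of 31 basement membrane and elastic matrix genes 17 fell and 0 rose (median -2.37). Fn1, fibronectin, had 6941, 7682 and 8944 in WD_CD and 1022, 666 and 1279 in WD_WD (-3.03 ± 0.56, limma adjusted p = 0.00306), Lamb2, a laminin chain, had 1510, 2659 and 3276 in WD_CD and 254, 71.3 and 190.1 in WD_WD (-3.96 ± 0.54, limma adjusted p = 0.000679), and Timp3, the matrix-bound inhibitor of metalloproteinases, had 7097, 12371 and 8735 in WD_CD and 735, 459 and 602 in WD_WD (-3.96 ± 0.66, limma adjusted p = 0.00177). Eln, tropoelastin, had 11804, 20172 and 13487 in WD_CD and 3357, 1093 and 566 in WD_WD (-3.53 ± 0.82, limma adjusted p = 0.00982). In each the 3 WD_CD libraries lay above all of WD_WD, and WD_WD_1 was the highest of its group for Lamb2, Timp3 and Eln. This list has long transcripts, with a median of 5063 bases, and 7 members were lower after centring on transcript length. The count of falls was 9 without WD_CD_2 and 10 without WD_CD_3.

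Genes of fibroblasts and of smooth muscle, the neighbouring cell types of the wall, were lower as well. Of 26 fibroblast and adventitia genes 9 fell and 0 rose (median -2.42), and their summed value was 54346 to 110340 in WD_CD and 9017 to 37495 in WD_WD. Fbln2, a fibulin, had 4332, 6378 and 4386 in WD_CD and 362, 65.2 and 356 in WD_WD (-4.59 ± 0.94, limma adjusted p = 0.00517), and Col3a1, a fibrillar collagen, had 10004, 6837 and 6499 in WD_CD and 1205, 250.2 and 740.4 in WD_WD (-3.65 ± 0.77, limma adjusted p = 0.00594). Abi3bp, a matrix protein, fell most of all genes named by the rule, from 498, 556 and 366 in WD_CD to 0, 3.03 and 11.9 in WD_WD (-6.97 ± 0.94, limma adjusted p = 0.000641), with 5 reads in all of WD_WD. Dcn, decorin, a defining fibroblast gene, did not pass, with 27974, 5397 and 18693 in WD_CD and 10059, 2516 and 5290 in WD_WD (-1.47 ± 1.18, limma adjusted p = 0.378) and overlapping groups. Of 26 smooth muscle genes 5 fell and 0 rose (median -1.55), with overlapping sums of 23791 to 83586 in WD_CD and 15445 to 32612 in WD_WD. Itga8, an integrin chain of smooth muscle, had 279, 999.7 and 481 in WD_CD and 28.3, 13.6 and 47.5 in WD_WD (-4.22 ± 0.76, limma adjusted p = 0.00250). Myh11, the smooth muscle myosin, had 501, 2345 and 1083 in WD_CD and 113, 62.2 and 348 in WD_WD (-2.995 ± 0.78, limma adjusted p = 0.0163), a call lost without WD_CD_2 or WD_WD_2 (limma adjusted p 0.0637 to 0.0705) and after centring on transcript length (0.0630). WD_CD_2 was the highest library for both. Acta2, smooth muscle actin, did not pass (6818, 27820 and 13939 in WD_CD and 14554, 5593 and 6177 in WD_WD, -0.80 ± 0.85, limma adjusted p = 0.511).

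Falls in the fibroblast list numbered 4 without WD_WD_2 and 14 without CD_WD_1, and in the smooth muscle list 2 without WD_CD_2 or WD_WD_2, 3 without WD_CD_3 and 10 without CD_WD_1. After centring on transcript length 5 and 3 members were lower, and after scaling to equal totals 16 and 17. No member of either list was without reads in a group, as for all but 3 of the 10655 genes in the table. The part of these cells in the fall of matrix and endothelial genes was not tested.

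Most pan-leukocyte genes were higher in WD_WD. Of 30 pan-leukocyte genes 22 rose and 0 fell (median 2.80). Cyba, a subunit of the phagocyte NADPH oxidase, had 6161, 1798 and 3776 in WD_CD and 114260, 94438 and 61890 in WD_WD (4.65 ± 0.51, limma adjusted p = 0.000344), and Cd52, a surface glycoprotein of lymphocytes and monocytes, had 1849, 224 and 454 in WD_CD and 32471, 21368 and 27831 in WD_WD (5.55 ± 0.98, limma adjusted p = 0.00228). Laptm5, a lysosomal protein of blood cells, had 4266, 983 and 1231 in WD_CD and 21767, 20883 and 9590 in WD_WD (3.24 ± 0.55, limma adjusted p = 0.00185). In WD_CD the highest of the 3 libraries was WD_CD_1 for each of these genes. Ptprc, CD45, the surface phosphatase that defines leukocytes, did not pass, with 1331, 621 and 216 in WD_CD and 1081, 2220 and 1746 in WD_WD (1.52 ± 0.72, limma adjusted p = 0.141) and overlapping groups.

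Genes of macrophages and monocytes were higher in part. In the core macrophage and monocyte list 14 of 32 rose and 3 fell (median 2.50), with summed values of 17244 to 129210 in WD_CD and 660660 to 1166500 in WD_WD. Spi1, PU.1, the transcription factor of myeloid cells, had 764, 194 and 284 in WD_CD and 3866, 6763 and 2677 in WD_WD (3.56 ± 0.51, limma adjusted p = 0.000786). Lyz2, lysozyme, had 62372, 4505 and 26266 in WD_CD and 719900, 588990 and 417240 in WD_WD (4.85 ± 1.04, limma adjusted p = 0.00653), and the adaptor Tyrobp, through which myeloid receptors signal, had 3566, 239.9 and 1918 in WD_CD and 88902, 83292 and 54399 in WD_WD (5.97 ± 0.75, limma adjusted p = 0.000469). Each lay above WD_CD_1, the highest WD_CD library, in all of WD_WD. Cd68, a lysosomal glycoprotein of macrophages, had 5069, 338 and 2772 in WD_CD and 38525, 45454 and 26022 in WD_WD (4.41 ± 1.08, limma adjusted p = 0.0125), with limma adjusted p = 0.0517 without WD_CD_2 and 0.0594 after scaling to equal totals. Csf1r, the growth factor receptor on which macrophages depend, did not pass: it had 1688, 376 and 1148 in WD_CD and 1241, 1750 and 1053 in WD_WD (0.55 ± 0.74, limma adjusted p = 0.608), overlapping, and turned to -0.83 under scaling to equal totals and -0.08 without WD_CD_2. Lyve1, a hyaluronan receptor of lymphatic endothelium and of resident arterial macrophages, fell from 2382, 1810 and 1540 in WD_CD to 208, 9.10 and 186 in WD_WD (-4.68 ± 1.07, limma adjusted p = 0.00920).

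Genes known from lipid-laden macrophages of plaques rose in 18 of 30 cases and fell in 0 (median 3.64). Fabp5, a fatty acid binding protein, had 2233, 406 and 1417 in WD_CD and 113690, 112250 and 84435 in WD_WD (6.56 ± 0.81, limma adjusted p = 0.000415). Ctsz, a lysosomal protease, had 7628, 2425 and 3211 in WD_CD and 40053, 56784 and 30325 in WD_WD (3.39 ± 0.48, limma adjusted p = 0.000762), and Lgals1, a galectin, had 5279, 2808 and 4240 in WD_CD and 44561, 35640 and 38339 in WD_WD (3.31 ± 0.46, limma adjusted p = 0.000693). The groups did not overlap for any of the 3. Gpnmb, a transmembrane protein of foamy macrophages, was higher in each WD_WD library but did not pass, with 10746, 224 and 4401 in WD_CD and 85347, 91343 and 49275 in WD_WD (5.05 ± 1.76, limma adjusted p = 0.0533). Trem2, the lipid-sensing receptor of these cells, had 1410, 2.79 and 349 in WD_CD and 13963, 8844 and 8786 in WD_WD (6.38 ± 2.05, limma adjusted p = 0.0393), and its call was lost in 11 of the 25 other fits (limma adjusted p up to 0.144, without WD_CD_2).

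Neutrophil and inflammatory monocyte genes showed the widest distance of any list with at least 15 measured genes: 16 of 21 measured rose and 0 fell, with a median of 5.63. The list had 36 members, and those not measured were absent from the deposited table. S100a8 and S100a9 encode both subunits of calprotectin and lie next to each other at chr3:90669071-90670034 and chr3:90692630-90695721 (GRCm38). S100a8 had 319, 5.18 and 74.9 in WD_CD and 7364, 131060 and 71440 in WD_WD (9.59 ± 1.57, limma adjusted p = 0.00165), and S100a9 had 125, 0.398 and 50.2 in WD_CD and 3501, 34034 and 23349 in WD_WD (9.40 ± 1.38, limma adjusted p = 0.000950). Ly6c2, the surface marker of inflammatory monocytes, had 164, 10.8 and 10.03 in WD_CD and 1593, 2730 and 5820 in WD_WD (6.73 ± 0.92, limma adjusted p = 0.000691). WD_WD_1 was the lowest of its group for all 3 and still above every WD_CD library. Trem1, an amplifying receptor of neutrophils and monocytes, had no read in WD_CD and 231, 2781 and 792 in WD_WD, which is at least 2689-fold higher when 3 reads over the WD_CD group are taken as the floor (limma adjusted p = 0.000257).

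Dendritic cell and lymphocyte genes were higher in part. Of 25 dendritic cell genes 8 rose and 1 fell (median 1.85). Cd83, a maturation marker of these cells, had 1245, 244 and 375 in WD_CD and 10159, 21734 and 13256 in WD_WD (4.88 ± 0.57, limma adjusted p = 0.000377), without overlap. Of 31 T and NK cell genes 7 rose, and of 18 B and plasma cell genes 3, with 0 falls in both. Their medians were 1.97 and 4.30, and 30 and 17 members had fold changes above 0. The share called in the B and plasma cell list was near the 14.2% of all genes, although its median was far above theirs. Nkg7, a cytotoxic granule protein, had 133, 4.78 and 11.4 in WD_CD and 3062, 1386 and 3116 in WD_WD (6.80 ± 1.12, limma adjusted p = 0.00173), and Jchain, the joining chain of secreted antibodies, had 22.9, 0.398 and 26.7 in WD_CD and 835, 924 and 736 in WD_WD (6.41 ± 1.53, limma adjusted p = 0.0109). The chemokine receptor Cxcr5, which guides B cells to follicles, had 0.848, 7.97 and 1.34 in WD_CD and 485, 187 and 562 in WD_WD (6.78 ± 1.05, limma adjusted p = 0.00126). All 3 were nearly without reads in at least 1 WD_CD library and were found in all of WD_WD. Cd3e, of the T cell receptor complex, had 156, 114 and 37.4 in WD_CD and 396, 95.5 and 1018 in WD_WD (1.94 ± 1.47, limma adjusted p = 0.350), and Cd79a, of the B cell receptor, had 1200, 381 and 96.3 in WD_CD and 9460, 2499 and 7582 in WD_WD (3.99 ± 1.57, limma adjusted p = 0.0806). Neither passed, the first with overlap and the second without.

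Left out singly, libraries moved these counts of rises. The pan-leukocyte count was 11 without WD_WD_2 and 14 without WD_CD_2, WD_CD_3 or WD_WD_3, that of macrophages 7 without WD_CD_2 and 8 without WD_CD_3, WD_WD_1 or WD_WD_3, that of lipid-laden macrophages 9 without WD_CD_2 and 10 without WD_WD_2, that of T and NK cells 4 without WD_CD_2, WD_CD_3 or WD_WD_1, that of B cells 9 without CD_WD_1 and 10 without WD_CD_1 and that of dendritic cells 5 without WD_CD_2, WD_CD_3 or WD_WD_3. The neutrophil count stayed between 14 and 17 over the 6 libraries compared. Scaling to equal totals left 9, 5, 8 and 14 rises in the pan-leukocyte, macrophage, lipid-laden and neutrophil lists, whose medians remained above 0, and 4 and 4 in the dendritic cell and the T and NK cell lists. After centring on transcript length these last lists had 5 and 4 rises.

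**Figure D4:**
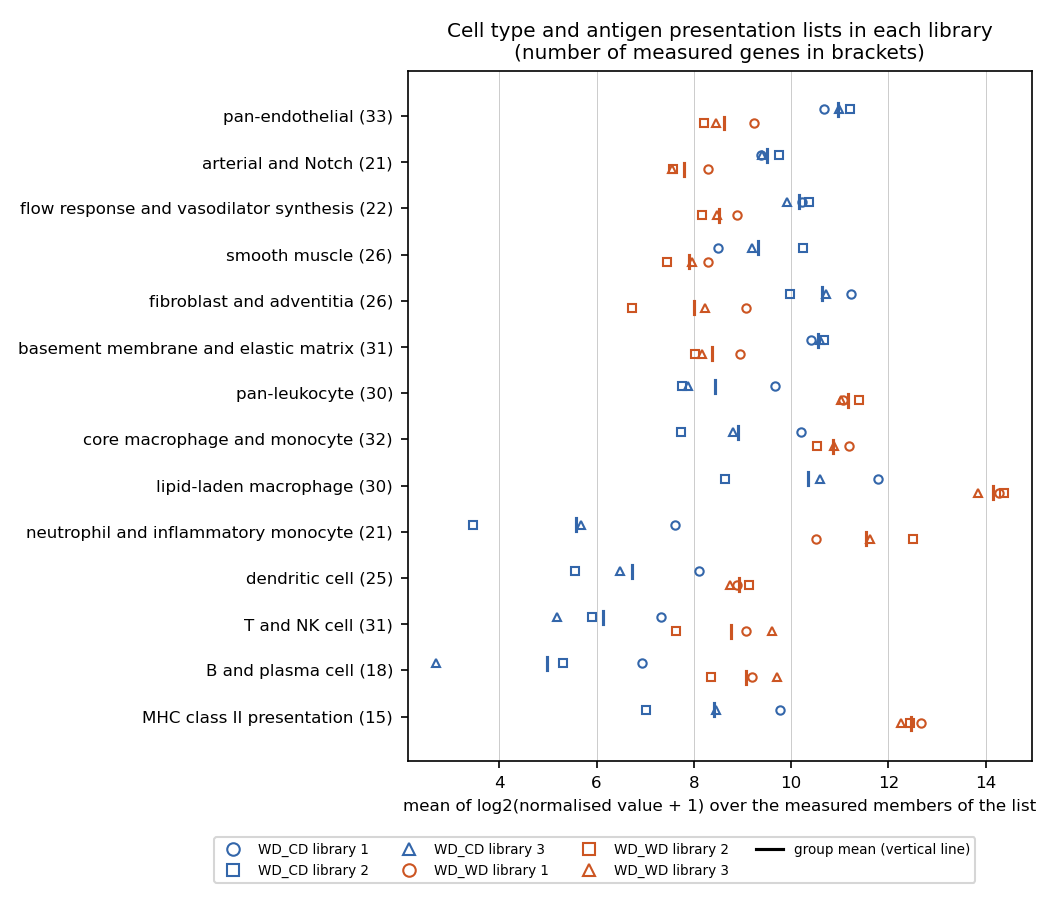
Mean of log2(normalised value + 1) over the measured members of 14 cell type, vessel wall and antigen presentation lists in each library, WD_CD in blue and WD_WD in orange, with vertical lines at the group means. The pan-endothelial mean was 10.67 to 11.20 in WD_CD and 8.20 to 9.23 in WD_WD, and the neutrophil mean 3.46 to 7.61 and 10.50 to 12.51. In each of these 14 lists no WD_WD library crossed a WD_CD library. The order holds for the deposited scale. After scaling to equal totals the medians of these 14 lists kept their signs.

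MHC class II genes, which present extracellular antigen to helper T cells, rose together. Of 15 measured members 13 rose and 0 fell (median 4.27), and the summed value was 11238 to 99779 in WD_CD and 448410 to 1049200 in WD_WD. Cd74, the invariant chain that escorts the class II dimer, had 43791, 5767 and 13769 in WD_CD and 536940, 353910 and 186350 in WD_WD (4.44 ± 0.91, limma adjusted p = 0.00510). The alpha chain H2-Aa had 8552, 936 and 3356 in WD_CD and 87178, 49323 and 51513 in WD_WD (4.34 ± 0.82, limma adjusted p = 0.00327), and the beta chain H2-Eb1 had 7249, 908 and 2132 in WD_CD and 59757, 33988 and 27736 in WD_WD (3.99 ± 0.79, limma adjusted p = 0.00433). H2-DMa, a chain of the peptide-loading protein H2-M, had 1033, 200.02 and 319.6 in WD_CD and 7575, 3642 and 5892 in WD_WD (3.75 ± 0.70, limma adjusted p = 0.00308). In each, WD_CD_1 was the highest and WD_CD_2 the lowest WD_CD library, and all of WD_WD lay above both. After scaling to equal totals 10 members remained higher and 0 lower, and after centring on transcript length 10 were higher. Leaving out single libraries gave 10 to 13 rises. The macrophage list, whose cells present antigen, moved with it by the sums given above, and its part in the result was not tested.

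Class II promoters are known for the X and Y boxes bound by the CIITA enhanceosome. The Y box was searched as CTGATTGG on both strands in the 250 bases before the start of each gene, using RefSeq promoters of GRCm38.p6. It occurred in 3 of the 10 class II members with a promoter entry, against 3.83% of 32851 promoters. A member counted if any of its promoter entries had the box, whereas the share is of single entries, so the comparison is not like for like. These 3 stretches are shown because they carry the box in genes that rose, each with the box in capitals and the 200 bases that end just before the start site. The box ends 44 bases before the start in H2-Aa (chr17:34287824-34288023, minus strand), 55 in H2-Eb1 (chr17:34305667-34305866, plus strand) and 39 in H2-Oa (chr17:34092179-34092378, plus strand).
H2-Aa: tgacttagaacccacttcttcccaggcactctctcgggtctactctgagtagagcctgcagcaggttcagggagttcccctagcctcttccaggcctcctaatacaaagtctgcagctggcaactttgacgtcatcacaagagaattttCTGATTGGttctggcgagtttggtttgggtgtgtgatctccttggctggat
H2-Eb1: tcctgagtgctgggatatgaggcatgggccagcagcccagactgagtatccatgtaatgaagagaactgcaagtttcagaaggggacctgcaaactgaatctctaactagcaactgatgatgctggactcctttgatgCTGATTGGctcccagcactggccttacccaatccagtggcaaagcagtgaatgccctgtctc
H2-Oa: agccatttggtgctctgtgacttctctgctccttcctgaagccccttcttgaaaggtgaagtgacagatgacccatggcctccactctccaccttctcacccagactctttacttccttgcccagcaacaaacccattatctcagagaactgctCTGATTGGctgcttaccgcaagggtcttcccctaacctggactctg
H2-Oa, a chain of the peptide-loading regulator H2-O, is named for its promoter, after its values were seen. It had 22.5, 10.4 and 71.6 in WD_CD and 979, 444 and 1026 in WD_WD (4.83 ± 1.35, limma adjusted p = 0.0226), and its call was lost without WD_CD_2, WD_WD_1 or WD_WD_3 (limma adjusted p 0.0588 to 0.0782), after centring on transcript length (0.0665) and after scaling to equal totals (0.0521). A match describes the letters of the promoter and is not a bound site.

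MHC class I and immunoproteasome genes, which display peptides of the cell's own proteins, changed less uniformly: 6 of 21 rose and 1 fell (median 0.48). Psme2, a subunit of the proteasome activator PA28, had 1909, 966 and 1238 in WD_CD and 6070, 4897 and 4692 in WD_WD (1.98 ± 0.48, limma adjusted p = 0.0115), and its call was lost after scaling to equal totals and after centring on transcript length (limma adjusted p = 0.191 and 0.203). After scaling to equal totals 0 rose and 8 fell, with a median still 0.46 above that of all genes, and after centring on transcript length 0 members passed in either direction. The share of falls under equal totals was near that of all genes. The count of rises was 2 without WD_CD_2 or WD_WD_1 and 3 without WD_CD_1 or WD_CD_3.

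Interleukin 1 and NF-kB genes were higher. Of 31 members 18 rose and 0 fell (median 2.16). Il1b, the interleukin 1 beta precursor, had 1667, 34.7 and 171 in WD_CD and 16314, 50768 and 17192 in WD_WD (6.80 ± 1.15, limma adjusted p = 0.00185). Il1a, its relative, was among the largest rises of all, from 110.3, 0.398 and 0.669 in WD_CD to 1659, 9348 and 2213 in WD_WD (8.99 ± 1.84, limma adjusted p = 0.00508). Tnfaip2, a gene induced by tumour necrosis factor, had 889.6, 665 and 1152 in WD_CD and 11240, 34929 and 19548 in WD_WD (4.49 ± 0.68, limma adjusted p = 0.00113), and the inhibitor Nfkbie, I-kappa-B epsilon, had 162, 81.7 and 126 in WD_CD and 1179, 1221 and 408 in WD_WD (2.81 ± 0.47, limma adjusted p = 0.00182). WD_WD_2 had the highest value of the 6 libraries for these 4 genes, and no WD_WD library fell into the WD_CD range. The receptor-side adaptor Traf1 had 407, 81.7 and 119.7 in WD_CD and 1058, 2687 and 1212 in WD_WD (3.24 ± 0.60, limma adjusted p = 0.00306). The kappa-B motif was searched as GGGRNNYYCC on both strands, where R is A or G, Y is C or T and N any base. In the 250 bases before the start it was present in 12 of 27 members with a promoter entry. It was present in 9 of the 18 that rose, against 7.25% of 32851 promoters. As for the Y box, members were counted by gene and the last share by single promoter entries. The stretch of Nfkbie (chr17:45555500-45555699, plus strand, motif ending 97 bases before the start) is shown as an example from an inhibitor that feeds back on the pathway.
Nfkbie: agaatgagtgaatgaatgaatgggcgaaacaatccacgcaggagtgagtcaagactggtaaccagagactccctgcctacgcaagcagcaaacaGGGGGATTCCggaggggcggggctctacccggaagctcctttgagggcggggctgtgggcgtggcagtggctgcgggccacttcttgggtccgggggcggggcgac
With totals made equal 8 rose and 5 fell. The count of rises was 12 to 19 with 1 library left out. Leukocytes express many genes of this list, the pan-leukocyte sums given above moved with them, and their part in the result was not tested.

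Chemokine genes rose with them, 18 of 34 members, while 1 fell (median 3.97). Ccl5, which attracts T cells and monocytes, had one of the smallest p-values of all genes, with 23.3, 61.8 and 38.1 in WD_CD and 3290, 3148 and 1952 in WD_WD (6.12 ± 0.51, limma adjusted p = 8.63e-05). Ccl4, a macrophage inflammatory protein, had 2670, 53.4 and 393 in WD_CD and 34199, 79070 and 53825 in WD_WD (7.09 ± 1.19, limma adjusted p = 0.00183). The neutrophil attractant Cxcl2 had 2386, 527 and 1321 in WD_CD and 17382, 74648 and 30302 in WD_WD (4.84 ± 0.69, limma adjusted p = 0.000762), and Ccl2, the monocyte attractant MCP-1 that endothelium and macrophages make, had 1443, 158 and 348 in WD_CD and 11636, 32188 and 12247 in WD_WD (5.27 ± 0.98, limma adjusted p = 0.00308). Groups did not overlap for any of the 4, and WD_WD_2 was highest for Ccl4, Cxcl2 and Ccl2 but not for Ccl5. Cxcl10, an interferon-induced attractant of T cells, had 286, 141 and 225 in WD_CD and 2391, 4874 and 3908 in WD_WD (4.09 ± 0.76, limma adjusted p = 0.00293). After scaling to equal totals 12 rose and 4 fell, and the count of rises was 12 to 19 with 1 library left out.

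Sensors and interferon-induced genes rose in part. Of 22 toll-like receptor and inflammasome genes 6 rose and 1 fell. Pycard, the ASC adaptor of inflammasomes, had 528, 228 and 250.1 in WD_CD and 2826, 2658 and 3203 in WD_WD (3.21 ± 0.37, limma adjusted p = 0.000355). Unc93b1, which delivers toll-like receptors to endosomes, had 1582, 353 and 619 in WD_CD and 4883, 6092 and 3069 in WD_WD (2.68 ± 0.46, limma adjusted p = 0.00195), without overlap for either. The count of rises was 2 without WD_WD_2 and 3 without WD_CD_2, WD_CD_3 or WD_WD_3, and with totals made equal 3 rose and 5 fell. Among 50 interferon-induced genes 16 rose and 1 fell. The median of 0.92 became -0.46 under scaling to equal totals, where it was still 0.90 above that of all genes, with 6 rises and 9 falls, and without WD_CD_2 the count of rises was 10. Zbp1, a sensor of Z-form nucleic acid, had 62.4, 28.7 and 63.5 in WD_CD and 773, 826 and 1033 in WD_WD (4.14 ± 0.46, limma adjusted p = 0.000344), Ifitm1, a restriction factor of membranes, had 253, 25.5 and 84.9 in WD_CD and 2132, 9006 and 2795 in WD_WD (5.50 ± 0.92, limma adjusted p = 0.00178), and Oasl1, of the oligoadenylate synthetase family, had 47.9, 0 and 20.1 in WD_CD and 694, 1479 and 1156 in WD_WD (6.71 ± 1.15, limma adjusted p = 0.00199). All 3 were low in every WD_CD library.

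Fc receptor and C-type lectin genes were higher too, 14 of 26 with 0 falls (median 4.70). Fcer1g, the signalling chain shared by activating Fc receptors, had 3150, 347 and 1749 in WD_CD and 81247, 82766 and 57943 in WD_WD (5.88 ± 0.69, limma adjusted p = 0.000377). Lgals3, a galectin of macrophages, had 11236, 347 and 5259 in WD_CD and 208350, 212830 and 93914 in WD_WD (5.88 ± 1.26, limma adjusted p = 0.00650). WD_CD_2 was the lowest library for both. The count of rises was 6 without WD_CD_3 or WD_WD_2 and 7 without WD_CD_2 or WD_WD_3, 8 after centring on transcript length and 7 after scaling to equal totals, with 1 fall. Complement genes had 2 rises and 2 falls among 22, a share below that of all genes in both directions.

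Lipid and lysosomal genes moved in part. In the list of LXR targets and cholesterol efflux 6 of 25 rose and 2 fell. Npc2, which hands cholesterol out of the lysosome, had 3790, 2123 and 1926 in WD_CD and 10542, 11797 and 8873 in WD_WD (2.05 ± 0.35, limma adjusted p = 0.00195), and Soat1, which esterifies cholesterol for storage, had 214, 262 and 221 in WD_CD and 678, 1301 and 1501 in WD_WD (2.24 ± 0.55, limma adjusted p = 0.0123). Both lost their call under scaling to equal totals (limma adjusted p = 0.227 and 0.302), where 0 of the list rose, 5 fell and the median of 1.35 became -0.03, still 1.32 above that of all genes. Without CD_WD_1 the count of rises was 11. Of 27 genes of cholesterol synthesis and uptake 1 rose and 1 fell, below the share of all genes. Of 38 fatty acid genes 5 rose and 1 fell, which is also below the shares of all genes, and 3 and 15 did after scaling to equal totals. Under that scaling the share that fell was near that of all genes. Hilpda, a lipid droplet protein that restrains lipolysis, had 397, 254 and 602 in WD_CD and 4282, 7998 and 4351 in WD_WD (3.75 ± 0.41, limma adjusted p = 0.000344). Cpt1a, which admits fatty acids to mitochondria for oxidation, fell from 1135, 1076 and 1130 in WD_CD to 457, 165 and 150.5 in WD_WD (-2.30 ± 0.43, limma adjusted p = 0.00296). Neither gene had overlapping groups, and without WD_WD_2 the count of rises was 3.

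In the lysosome list 12 of 50 rose and 4 fell (median 0.86). Ctss, a cathepsin of antigen-presenting cells, had 14278, 464 and 5948 in WD_CD and 114980, 119690 and 70997 in WD_WD (4.86 ± 1.00, limma adjusted p = 0.00522), and Gla, alpha-galactosidase, had 361, 46.6 and 284 in WD_CD and 1721, 3477 and 3496 in WD_WD (4.02 ± 0.66, limma adjusted p = 0.00167). Ids, a sulfatase that degrades heparan sulfate, fell from 568, 416 and 492 in WD_CD to 43.7, 9.10 and 162 in WD_WD (-3.54 ± 0.78, limma adjusted p = 0.00749). With totals made equal 4 rose and 11 fell, with the median at -0.53, still 0.83 above that of all genes. Falls numbered 2 after centring on transcript length, and the count of rises was 7 without WD_CD_2 and 22 without CD_WD_1. The V-ATPase, the proton pump of lysosomes, had 8 of 17 subunits higher and 0 lower, such as Atp6v1g1 with 2060, 1469 and 1685 in WD_CD and 8787, 9774 and 7056 in WD_WD (2.30 ± 0.27, limma adjusted p = 0.000377), and 3 higher and 2 lower after that scaling. Centring on transcript length left 5 higher. WD_CD_1, which had the highest macrophage sum of its group, was the highest WD_CD library for Ctss, Gla and Atp6v1g1. The macrophage list moved with the lipid, lysosomal and iron genes, and its part in them was not tested.

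Ferritin led the iron genes. Ftl1, the light chain of this iron store, had 81698, 31580 and 52669 in WD_CD and 1782700, 1457100 and 1068800 in WD_WD (4.77 ± 0.87, limma adjusted p = 0.00268), and Fth1, the heavy chain, had 50159, 27000 and 36379 in WD_CD and 988870, 818470 and 508830 in WD_WD (4.34 ± 0.76, limma adjusted p = 0.00218). Blvrb, a biliverdin reductase of heme breakdown, had 500.2, 147 and 381 in WD_CD and 3039, 2467 and 1239 in WD_WD (2.79 ± 0.48, limma adjusted p = 0.00200). All WD_WD libraries lay above all WD_CD libraries in the 3 genes. In the list 11 of 29 rose and 2 fell, turning to 4 and 8 after scaling to equal totals, where the median of 0.74 became -0.65, still 0.71 above that of all genes. Centring on transcript length left 7 rises. Hmox1, the inducible heme oxygenase, had 354, 78.1 and 245 in WD_CD and 2291, 1852 and 966 in WD_WD (3.07 ± 0.86, limma adjusted p = 0.0227). Its call was lost without WD_CD_2, WD_WD_1 or WD_WD_2 (limma adjusted p 0.0643 to 0.0888), after scaling to equal totals (0.180) and after centring on transcript length (0.0504).

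NRF2 and antioxidant genes had 15 rises and 1 fall among 37, and glycolysis and hypoxia genes had 10 and 2 among 36. The medians, 1.17 and 0.80, fell to -0.22 and -0.58 under scaling to equal totals, where they were still 1.14 and 0.78 above that of all genes. The rises then numbered 4 and 2 and the falls 8 and 10, and centring on transcript length left 9 rises in the NRF2 list. Gpx1, glutathione peroxidase, had 11446, 8545 and 9522 in WD_CD and 132450, 103980 and 80080 in WD_WD (3.40 ± 0.42, limma adjusted p = 0.000449), and Txn1, thioredoxin, had 2331, 1403 and 2258 in WD_CD and 13175, 12066 and 9138 in WD_WD (2.54 ± 0.32, limma adjusted p = 0.000493). Hk2, the inducible hexokinase, had 264, 162 and 274 in WD_CD and 1814, 1709 and 2653 in WD_WD (3.15 ± 0.44, limma adjusted p = 0.000701). Epas1, the hypoxia-inducible factor HIF-2 alpha of endothelium, fell from 4906, 7848 and 5875 in WD_CD to 719, 321 and 732 in WD_WD (-3.46 ± 0.68, limma adjusted p = 0.00410). None of the 4 genes had overlapping groups.

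Most genes of the respiratory chain and the ribosomes, which have short transcripts, were higher. Of 81 nuclear-encoded respiratory chain genes 63 rose, of 79 cytosolic ribosomal protein genes 65, of 77 mitochondrial ribosomal protein genes 47 and of 34 proteasome subunits 18, with 0 falls in all 4 lists. Cycs, cytochrome c, had 861, 614 and 496 in WD_CD and 5564, 5564 and 5171 in WD_WD (3.08 ± 0.34, limma adjusted p = 0.000344), and Atp5l, a subunit of ATP synthase, had 1479, 1064 and 1166 in WD_CD and 14767, 13022 and 16056 in WD_WD (3.57 ± 0.40, limma adjusted p = 0.000355). Rps15a, of the small ribosomal subunit, had 710.1, 502 and 605 in WD_CD and 8620, 7344 and 9340 in WD_WD (3.81 ± 0.60, limma adjusted p = 0.00135). Values within a group lay close together in these 3 genes, far from those of the other group. Psmb6, a catalytic subunit of the proteasome, had 1955, 2350 and 3029 in WD_CD and 18196, 18348 and 15834 in WD_WD (2.86 ± 0.32, limma adjusted p = 0.000355), and Mrpl57 of the mitochondrial ribosome had 247, 288 and 349 in WD_CD and 2129, 3220 and 1770 in WD_WD (2.97 ± 0.44, limma adjusted p = 0.000988). Atpif1, the inhibitor of ATP synthase, was among the 10 genes with the smallest p in the upward direction, at 1665, 1322 and 1135 in WD_CD and 17513, 16050 and 15173 in WD_WD (3.58 ± 0.31, limma adjusted p = 9.18e-05), as were Lamtor4, of the lysosomal Ragulator complex, Trappc2l and Sec61g.

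Median transcript lengths were 745 bases in the respiratory chain list, 771 in the cytosolic and 1223 in the mitochondrial ribosomal list and 1468 in the proteasome list. After centring on transcript length 21, 9, 12 and 3 members were higher, and the medians of 2.02, 2.24, 1.51 and 1.00 became 0.38, 0.84, 0.51 and 0.43. Of all 10655 genes 895 were then higher. The share of the proteasome list was near theirs, and that of the cytosolic ribosomal list was little above it. After scaling to equal totals 33, 25, 11 and 1 were higher and 7, 1, 9 and 3 lower, with the proteasome median at -0.38, still 0.98 above that of all genes. The part of transcript length in these 4 results was not tested beyond that centring. The cytosolic ribosomal count was 32 without WD_CD_2 and 40 without WD_WD_1, and the proteasome count 11 without WD_CD_2.

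Immediate-early genes, which also respond to the handling of tissue, rose in 10 of 33 cases and fell in 1 (median 0.72, -0.67 under scaling to equal totals, where it was still 0.69 above that of all genes and 3 rose and 7 fell). Dusp5, a phosphatase of nuclear ERK, had 142, 232 and 122 in WD_CD and 1122, 1488 and 1726 in WD_WD (3.15 ± 0.38, limma adjusted p = 0.000385), and Batf, an AP-1 factor of lymphocytes and dendritic cells, had 141, 50.6 and 79.6 in WD_CD and 1338, 957 and 558 in WD_WD (3.42 ± 0.52, limma adjusted p = 0.00118). The subunits Jun and Fos did not pass. Jun had 8702, 10875 and 10740 in WD_CD and 11690, 23305 and 13126 in WD_WD (0.60 ± 0.40, limma adjusted p = 0.278) and Fos had 30521, 47236 and 29939 in WD_CD and 43809, 71354 and 44481 in WD_WD (0.56 ± 0.63, limma adjusted p = 0.535), with signs that turned to -0.78 and -0.82 under scaling to equal totals.

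Clock genes were lower: 8 of 20 fell and 1 rose (median -1.53). Tef, a clock-controlled transcription factor, had 503, 1301 and 1202 in WD_CD and 89.9, 22.7 and 47.5 in WD_WD (-4.29 ± 0.57, limma adjusted p = 0.000568), Nr1d2, REV-ERB beta of the repressor arm, had 422, 915 and 506 in WD_CD and 77.1, 171 and 51.5 in WD_WD (-2.71 ± 0.57, limma adjusted p = 0.00590), and Per3, a period protein, had 456, 401 and 499 in WD_CD and 41.1, 1.52 and 143 in WD_WD (-4.19 ± 1.09, limma adjusted p = 0.0165). The groups did not overlap for any of the 3. The hour of collection is not given in the labels. The count of falls was 3 without WD_CD_2 and 5 without WD_CD_3 or WD_WD_3, and 13 after scaling to equal totals.

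Chromatin modifiers, a list of long transcripts with a median of 4638 bases, had 13 falls and 1 rise among 76 (median -0.71), and 7 falls after centring on transcript length. The share of falls after centring was little above that of all genes. The count of falls was 8 without WD_CD_2 or WD_CD_3, and 53 after scaling to equal totals. Smarca2, an ATPase of SWI/SNF remodellers, had 1157, 1007 and 1597 in WD_CD and 426, 372 and 178 in WD_WD (-2.01 ± 0.36, limma adjusted p = 0.00245), Setd2, the H3K36 methyltransferase, had 272, 387 and 697 in WD_CD and 84.8, 57.6 and 135 in WD_WD (-2.25 ± 0.48, limma adjusted p = 0.00636), and Hdac7, a class IIa deacetylase of endothelium, had 638, 663 and 779 in WD_CD and 185, 25.8 and 245 in WD_WD (-2.69 ± 0.66, limma adjusted p = 0.0125). None of the 3 overlapped between groups. Of 15 RNA m6A genes 2 fell and 1 rose, and the demethylases Alkbh5 and Fto were those that fell. The share of this list that fell was near the 10.2% of all genes. Alkbh5 had 833, 1365 and 1063 in WD_CD and 172, 230.5 and 253 in WD_WD (-2.30 ± 0.36, limma adjusted p = 0.00133) and Fto 578, 697 and 596 in WD_CD and 105, 78.9 and 277 in WD_WD (-2.22 ± 0.53, limma adjusted p = 0.0110).

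Myeloid genes were among the largest single rises. Chil3, the chitinase-like protein Ym1 of alternatively activated macrophages, at chr3:106147554-106167564 (GRCm38), had 30.5, 0 and 0 in WD_CD and 1387, 7472 and 3908 in WD_WD (10.09 ± 1.96, limma adjusted p = 0.00381). Slpi, a secreted inhibitor of neutrophil elastase, had 72.97, 0 and 173 in WD_CD and 7326, 24150 and 6438 in WD_WD (8.80 ± 1.47, limma adjusted p = 0.00178), and Irg1, which makes itaconate in activated macrophages, had 11.03, 0 and 98.97 in WD_CD and 691, 6744 and 2352 in WD_WD (7.71 ± 1.49, limma adjusted p = 0.00374). WD_CD_2 had no read of any of the 3, and WD_WD_2 was highest of all. Outside the myeloid genes, Car2, a carbonic anhydrase in the erythroid and platelet list, and Guca1a, a guanylate cyclase activator of photoreceptors, rose as well. Car2 had 1 read in WD_CD and values of 390.4, 1024 and 2202 in WD_WD, a ratio of pooled levels of 6762, with a 95% exact counting interval of 1212 to 267270 (limma adjusted p = 8.63e-05). Guca1a had 0, 8.37 and 0 in WD_CD and 935, 672 and 519 in WD_WD (8.35 ± 0.98, limma adjusted p = 0.000377).

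Beside Abi3bp and Mmrn1, the largest single falls included Klk10, a secreted kallikrein, with 3297, 5844 and 4188 in WD_CD and 419, 1.52 and 143 in WD_WD (-6.34 ± 1.57, limma adjusted p = 0.0131), and Atp2b2, a plasma membrane calcium pump, with 265, 542 and 365 in WD_CD and 41.1, 0 and 3.96 in WD_WD (-5.98 ± 1.25, limma adjusted p = 0.00557). Nts, the peptide neurotensin, had 592, 354 and 158 in WD_CD and 2.57, 65.2 and 0 in WD_WD (-5.70 ± 1.23, limma adjusted p = 0.00656), and Adra2a, an alpha-2 adrenergic receptor, had 637, 737 and 582 in WD_CD and 56.5, 0 and 51.5 in WD_WD (-5.49 ± 1.40, limma adjusted p = 0.0148). At least 1 WD_WD library was at or near 0 in each of these 4. Among the smallest p-values downward, Sptbn1, non-erythroid beta spectrin, had 5777, 8297 and 7181 in WD_CD and 789, 689.99 and 1473 in WD_WD (-2.91 ± 0.33, limma adjusted p = 0.000355). Heg1, a receptor that stabilises endothelial junctions, had 1387, 1823 and 1060 in WD_CD and 211, 188 and 178 in WD_WD (-2.85 ± 0.34, limma adjusted p = 0.000377), and Kitl, stem cell factor, had 545, 440.3 and 784 in WD_CD and 23.1, 37.9 and 35.6 in WD_WD (-4.14 ± 0.54, limma adjusted p = 0.000546). The 3 WD_WD values lay close together in Heg1 and Kitl.

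The same contrast with mothers on CD, CD_WD against CD_CD, gave 1008 genes higher (9.46%) and 591 lower (5.55%). It shares no library with the comparison above, but both come from the same fit and use the same estimate of scatter for each gene. The overlap of calls is therefore not one between independent tests. Of the 1516 genes higher with WD mothers 825 were also called higher with CD mothers (54.4%, or 81.8% of the 1008), and 98.2% had the same sign. Of the 1088 genes lower 411 were also called (37.8%, or 69.5% of the 591), and 97.4% had the same sign. No gene was called in opposite directions. Over all genes Pearson's r between both fold changes was 0.763 and Spearman's rho 0.755, as a description across genes. CD_WD_1 stands apart from its group, with few endothelial reads. Without it the counts with CD mothers were 907 higher and 408 lower, and r was 0.736.

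**Figure D5:**
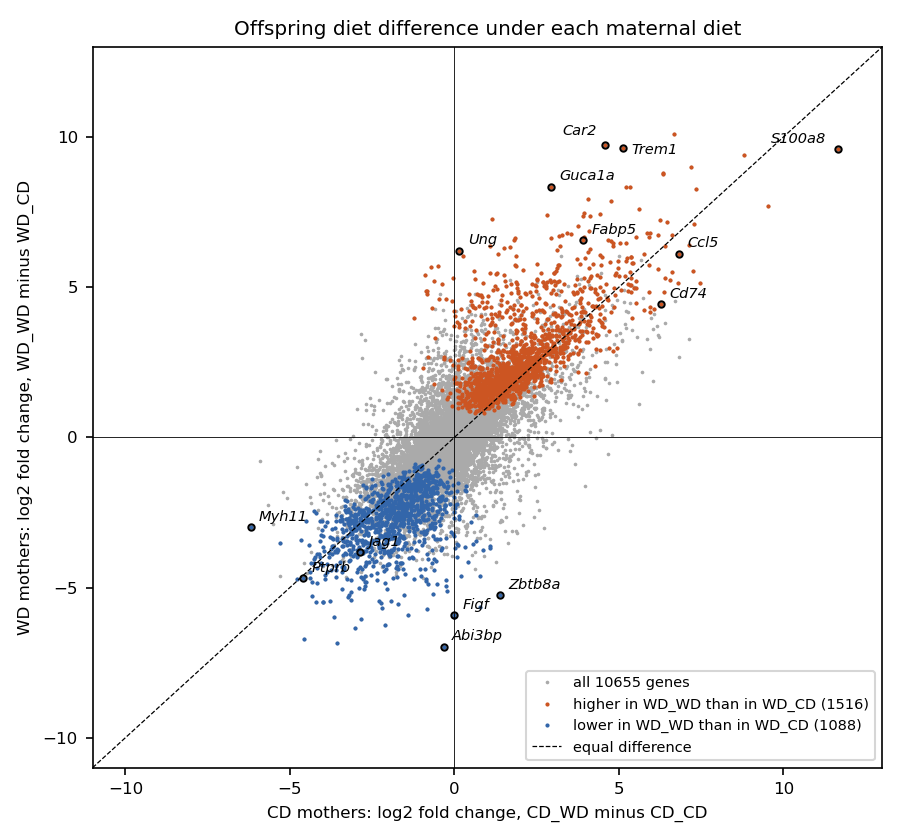
Log2 fold change between offspring diets with WD mothers (vertical) against CD mothers (horizontal) for 10655 genes, with the 1516 genes higher (orange) and 1088 lower (blue) in WD_WD in colour and 14 named genes circled. Points follow the dashed line of equal difference, with Pearson's r of 0.763 across genes, while Ung, Figf and Abi3bp lie near 0 on the horizontal axis.

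The difference between both offspring diet effects, the interaction, was called for 0 genes by limma (342 at an unadjusted p under 0.05, lowest adjusted p = 0.997), 0 by edgeR (306) and 10 by DESeq2 (453). Pan-endothelial genes fell in 15 and 13 cases with WD and CD mothers, basement membrane genes in 17 and 18, MHC class II genes rose in 13 and 12, and neutrophil genes in 16 and 14. Counts stood further apart for smooth muscle genes, of which 5 and 18 fell (medians -1.55 and -3.38), and for fibroblast genes, of which 9 and 2 fell (-2.42 and -0.57). By limma no member of these lists passed the interaction test, and a threshold passed under 1 maternal diet only does not show a difference.

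Of the 10 genes with the smallest interaction p, 7 are given here. Abi3bp had a log2 fold change of -6.97 with WD mothers and -0.32 with CD mothers (interaction limma adjusted p = 0.997, as for all that follow). Figf had -5.92 and 0.00. Ung, a uracil-DNA glycosylase, had 1 read in WD_CD and values of 82.2, 53.1 and 127 in WD_WD (ratio of pooled levels 484, with a 95% exact counting interval of 84.9 to 19309), with fold changes of 6.22 and 0.15. Car2 had 9.74 and 4.56, and Guca1a 8.35 and 2.93. Lrp12, a receptor of the LDL receptor family, had 5.40 and -0.90. Zbtb8a, a zinc finger gene, had 3 reads in WD_WD, values of 103, 132 and 126 in WD_CD and 2.57, 0 and 7.92 in WD_WD, a ratio of pooled levels of 52.02, with a 95% exact counting interval of 17.7 to 253, and fold changes of -5.25 and 1.38. With WD mothers each of these 7 genes passed limma's test of the offspring diet, and with CD mothers Car2 did.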

How the data were processed

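The deposited table holds normalised values for 10655 genes in 12 SMART-seq libraries. Each gene in it had reads in at least 9 libraries and a mean of at least 15.8, so genes with reads in few libraries are absent. Per the submitters' processing notes, which give tools without order, the mouse build was GRCm38 (mm10) and the tools included featureCounts 2.0.1, DESeq2, SAMtools 1.13, HISAT2 2.2.1, Trim Galore 0.6.10 and FastQC 0.12.1. The authors deposited a signal in each column, read counts divided by a factor per library. All 127860 values were whole multiples of the value of 1 read (100%, tolerance 0.01), so reads and library totals were recovered from them. The authors also deposited log2 fold changes, p-values and adjusted p-values of their own comparisons of maternal diets, which are not used here. Among the gene symbols 18 had turned into dates and 1 was repeated.

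On log2(value + 1), limma 3.58.1 (R 4.3.3) with a mean-variance trend was fitted to all 12 libraries in 4 groups of 3 (8 residual degrees of freedom, 4.71 prior), with contrasts for the offspring diet under each maternal diet and their interaction. P-values were adjusted by Benjamini-Hochberg over all genes. A minimum mean of 1 removed 0 genes. edgeR 4.0.16 had been planned for a table of counts. As the values are not counts, it and DESeq2 1.42.0 were run on the recovered reads as alternatives. Fits with the transcript length and GC content bins, and those without a library of CD mothers, were added after seeing the data. In a test on simulated data for this comparison over 10655 genes, limma recovered 9% of genes changed 3-fold and 53% of those changed 10-fold. Only 100 genes were changed at each fold and 67 were called, against 2604 in the data. As the adjustment depends on the number of calls, these shares do not carry over to the data. Antisense or overlapping genes may share reads, as the strand setting is not given in the sources used here. For genes with 1 to 3 reads in a group, ratios of pooled levels carry 95% exact intervals, which cover counting error only.

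Genes are named by a rule: the 15 largest rises and falls without overlap and a mean of at least 200, the 10 smallest p-values in each direction and of the interaction, up to 6 members per list with the smallest p, and a panel of marker genes. The members, lists and this rule were chosen with earlier results of these data known. Titles gave the groups. Replicate numbers were not taken to pair the libraries. Transcript lengths came from GENCODE and promoters and positions from RefSeq, both on GRCm38.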

Additional observations from a re-analysis of the deposited data

How the results depend on the processing

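Scaling, transcript length and single libraries moved the counts most. The 1516 genes higher and 1088 lower became 440 and 4271 after scaling to equal totals, and 895 higher after centring on transcript length. With 1 of the 12 libraries left out, the count of genes higher lay between 1044 (without WD_WD_2) and 1815 (without CD_WD_1) and that of genes lower between 528 (without WD_CD_2, with 582 without WD_CD_3) and 1520 (without CD_WD_1). The interaction was called for 0 genes by limma in all settings and by edgeR, and for 10 by DESeq2. With the replicate number as a block 1399 were higher and 920 lower, and the interaction count was 0. Libraries of the same number did not deviate together (correlations of -0.03, -0.03 and -0.01), so the numbers were not taken to pair them. Of the named genes, signs turned under scaling to equal totals for Klf2 (-0.45), Csf1r (-0.83), Jun (-0.78) and Fos (-0.82), and for Csf1r with single libraries left out (-0.079 without WD_CD_2 to 1.003 without WD_CD_1). The cause of these changes was not tested. The shallowest library held 4074413 reads, and the part of depth in what was called was not tested. The simulated recovery of 9% at 3-fold came from a setting with far fewer genes called and does not carry over to these data.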

Other observations

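Genes of other cells and processes moved in part, beside 14.2% of all genes called higher and 10.2% lower. Of all 10655 genes, 440 were higher and 4271 lower after scaling to equal totals. After centring on transcript length 895 were higher and 747 lower. Of 23 striated muscle genes 5 rose and 0 fell, and the count of rises was 1 without WD_CD_2, 2 without WD_WD_2, 3 without WD_WD_1, WD_WD_3 or CD_WD_2 and 8 without WD_CD_1, and 2 both after scaling to equal totals and after centring on transcript length. Myh1, a myosin of fast skeletal muscle fibres, had 2.55, 0 and 0 in WD_CD and 134, 68.2 and 206 in WD_WD (6.35 ± 1.08, limma adjusted p = 0.00190), so that nearly all of its reads came from WD_WD, and with CD mothers its log2 fold change was 1.70. Of 7 measured erythroid and platelet genes, from 22 listed, 2 rose, Gp5 and Car2, whose values are given above. Gp5, a platelet glycoprotein, had 0, 0 and 7.36 in WD_CD and 162, 136 and 209.8 in WD_WD (6.37 ± 1.18, limma adjusted p = 0.00296), without overlap. Mast cell genes other than Hdc were lower without passing the test. Hdc, histidine decarboxylase, which basophils and neutrophils also express, rose from 235, 171 and 36.8 in WD_CD to 586, 6964 and 1893 in WD_WD (4.10 ± 0.87, limma adjusted p = 0.00606). Cpa3, the carboxypeptidase of mast cell granules, had 4127, 935 and 851 in WD_CD and 727, 3.03 and 618 in WD_WD (-3.61 ± 1.66, limma adjusted p = 0.127), and Tpsb2, a mast cell tryptase, had 4932, 818 and 1169 in WD_CD and 1143, 0 and 443 in WD_WD (-4.39 ± 2.01, limma adjusted p = 0.126). The nerve adhesion molecule Ncam1 fell from 529, 550.3 and 1050 in WD_CD to 48.8, 4.55 and 47.5 in WD_WD (-4.83 ± 1.16, limma adjusted p = 0.0113), 1 of 6 nerve and Schwann cell genes.

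Adipocyte genes gave 2 rises and 1 fall among 20, shares below those of all genes. Pck1, which makes phosphoenolpyruvate for glycerol and glucose synthesis, had 5.51, 18.7 and 1.34 in WD_CD and 269.7, 347 and 487 in WD_WD (5.74 ± 1.10, limma adjusted p = 0.00351). Acly, which supplies acetyl-CoA for lipid synthesis, fell from 767, 671 and 635 in WD_CD to 195, 191 and 249 in WD_WD (-1.71 ± 0.31, limma adjusted p = 0.00261). The groups did not overlap for either gene. Among 61 heat shock and co-chaperone genes 11 rose and 1 fell, and the count of rises was 4 without WD_CD_2 or WD_CD_3, 5 without WD_WD_1 and 6 without WD_WD_3. Centring on transcript length left 6 rises, a share near that of all genes then. The list's median of 0.19 became -1.16 after scaling to equal totals, still 0.20 above that of all genes, with 3 rises and 27 falls. Both shares were near those of all genes under that scaling. Hspe1, the mitochondrial co-chaperonin, rose from 779, 523 and 722 in WD_CD to 10267, 7229 and 6181 in WD_WD (3.53 ± 0.61, limma adjusted p = 0.00209). Of 23 matrix protease and inhibitor genes 4 rose and 4 fell, and 1 and 9 did after scaling to equal totals, where both shares were near those of all genes. The count of rises was 2 without WD_CD_2, WD_WD_1 or WD_WD_2, and that of falls 7 without CD_WD_1. Adam10, a sheddase of Notch and other membrane proteins, fell from 1524, 1320 and 1497 in WD_CD to 293, 464 and 281 in WD_WD (-2.10 ± 0.36, limma adjusted p = 0.00200), and Adamts1, an aggrecanase, from 668, 1935 and 1447 in WD_CD to 193, 54.6 and 71.3 in WD_WD (-3.74 ± 0.88, limma adjusted p = 0.0104).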
